A study of Mus musculus with 8 samples.

Results

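The SLC25 family holds the carrier proteins that move nucleotides, phosphate, organic acids, amino acids and cofactors between the cytosol and the inside of mitochondria, and its transcripts are described here in skeletal muscle of *Eif6*+/- and wild-type (WT) mice. Members were all genes whose symbol starts with Slc25a, pseudogenes left out, found through the RefSeq accession of each array probe. This gave 47 genes of the 20660 genes with a probe, and all 47 were on the arrays, with 56 probes in all. *Eif6* encodes a factor that binds the large ribosomal subunit and acts in the initiation of translation, and the *Eif6*+/- mice carry 1 inactivated copy of it.

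Most carriers of this family sit in the inner mitochondrial membrane, share a fold of repeated pairs of membrane helices and exchange a solute on one side for a solute on the other. In muscle, the ADP/ATP carriers and the phosphate carrier supply the ATP synthase with its substrates and export the ATP it makes. Other members feed fuel into the matrix (acylcarnitines and amino acids) or carry reducing equivalents as part of the malate-aspartate shuttle, and the ATP-Mg/phosphate carriers, most of which are switched on by calcium, set the total adenine nucleotide content of the matrix.

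RNA came from whole *gastrocnemius* and *tibialis anterior* (TA) of mice 8 to 16 weeks old, in 2 groups, *Eif6*+/- and WT, with no treatment. Each of the 8 two-colour arrays, 4 for each muscle, held RNA of 1 *Eif6*+/- mouse in Cy5 and of 1 WT mouse of matched age in Cy3, put together at random, so a log2 ratio of Cy5 over Cy3 above 0 means a higher signal in *Eif6*+/- muscle. No array swapped the dyes, so effects of dye and of genotype cannot be told apart, and each muscle filled its own row of 1 slide, so effects of position and of muscle cannot be told apart either. The series text speaks of 4 mutant and 4 WT mice in all, so both muscles may come from the same mice, but nothing says whether pair 1 of one muscle and pair 1 of the other do. The log2 ratios of *Eif6* itself were −0.97, −1.15, −0.89 and −1.06 in *gastrocnemius* pairs 1 to 4 and −1.22, −1.03, −0.95 and −0.80 in TA pairs 1 to 4, below 0 on every array.

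A member entered the tests of a muscle if every array of that muscle showed its probe well above background in Cy5, in Cy3 or in both. By this measure 35 members were tested in *gastrocnemius*, 35 in TA and 34 in both. *Slc25a10* was tested in *gastrocnemius* alone and *Slc25a13* in TA alone, and 11 members were tested in neither muscle (*Slc25a2*, *Slc25a15*, *Slc25a18*, *Slc25a21*, *Slc25a23*, *Slc25a31*, *Slc25a41*, *Slc25a43*, *Slc25a48*, *Slc25a53* and *Slc25a54*). A few members passed with a WT channel that was not above background throughout: *Slc25a30* (3 of 4 arrays in each muscle), *Slc25a45* (3 of 4 in *gastrocnemius*) and *Slc25a13* (2 of 4 in TA). With limma the mean ratio of each probe was tested for a departure from 0, and a gene was called where the p of its brightest probe, adjusted by the Benjamini-Hochberg method over all kept probes, was under 0.1. These p-values measure the spread between pairs of mice.

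In *gastrocnemius* 8 of the 35 tested carriers rose and none fell (22.9% called, against 15.4% of all 12601 genes tested, 9.87% rising and 5.54% falling). They were the ADP/ATP carrier *Slc25a4*, the ATP-Mg/phosphate carrier *Slc25a25*, the phosphate carrier *Slc25a3*, the oxoglutarate carrier *Slc25a11*, *Slc25a14*, *Slc25a26*, *Slc25a33* and *Slc25a46*, with mean log2 ratios between 0.30 and 1.15. With a normexp offset of 0 in that muscle 6 rose and 1 fell (*Slc25a10*, −0.47), among 932 rising and 516 falling genes, and with the scanner software's signals 5 rose and 1 fell (*Slc25a45*, −0.57), among 809 and 394; the first count had 1244 and 698. In TA 8 of the 35 were called as well (16.3% of all 12375 genes), but 4 rose and 4 fell, against 8.99% and 7.29% of all genes. *Slc25a4*, *Slc25a25*, *Slc25a3* and *Slc25a14* rose in both muscles, and without the ADP/ATP carriers 7 of 33 members were called in each muscle. The 4 that fell in TA were the acylcarnitine carrier *Slc25a20*, the glutathione carrier *Slc25a39*, the iron carrier *Slc25a28* and *Slc25a35*.

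The median log2 ratio of the tested members was 0.10 in *gastrocnemius*, where it was 0.02 for all genes. Of the members' means there 23 lay above 0 and 12 below, against 6795 and 5806 of all genes. In TA the median was −0.03, again beside 0.02 for all genes, with 16 means above 0 and 19 below (6688 and 5687 of all genes). Without TA pair 4 the median log2 ratio of the SLC25 genes tested, TA, was 0.05. The array medians of the members were 0.22, 0.01, 0.12 and 0.05 in *gastrocnemius* and 0.05, 0.04, −0.02 and −0.06 in TA. On all 8 arrays *Slc25a3*, *Slc25a4*, *Slc25a14*, *Slc25a40* and *Slc25a46* lay above 0, and *Slc25a45* alone of the members tested in both muscles lay below 0. Of these, 1 array changed sides for *Slc25a3* with loess alone, the scanner software's signals and the deposited ratios, and for *Slc25a14*, *Slc25a40* and *Slc25a45* with the scanner software's signals. The counts rest on few pairs: without *gastrocnemius* pair 2 the members called in that muscle numbered 4 (1351 of all genes, against 1942), and without pair 3 or without pair 4 no gene of any kind was called there by limma, although 9 and 13 members, among 2424 and 2648 genes, reached an unadjusted p under 0.05. Members called in TA numbered 0 without pair 1 (limma; 8 members reached an unadjusted p under 0.05), 1 without pair 2 and 4 without pair 3, where 68, 533 and 1185 genes in all were called.

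The ADP/ATP carriers exchange cytosolic ADP for ATP made in the matrix, and *Slc25a4* is the form that predominates in heart and skeletal muscle. Its log2 ratios were 0.96, 1.00, 1.21 and 0.87 in *gastrocnemius* pairs 1 to 4 and 0.79, 0.47, 0.28 and 0.03 in TA pairs 1 to 4. All 8 lay above 0, and in neither muscle did the normalized intensities of the genotypes overlap. In *gastrocnemius* the 4 WT samples lay between 16.18 and 16.55 and the 4 *Eif6*+/- samples between 17.36 and 17.44; in TA the WT samples spread from 16.59 to 17.31 and the *Eif6*+/- samples lay between 17.34 and 17.40. The rise was 2.01-fold in *gastrocnemius* (mean log2 ratio 1.01 ± 0.14, SD, n = 4 pairs; limma, adjusted p = 0.0239, higher on 4 of 4 arrays) and 1.31-fold in TA (0.39 ± 0.32; adjusted p = 0.0758, higher on 4 of 4).

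*Slc25a4* lay at the top of the intensity scale, where quantile normalization leaves little room. Counted down from the brightest of 55681 probes, it held places 2 to 7 in the *Eif6*+/- channels of *gastrocnemius* and 4 to 7 in those of TA, and places 80 to 127 and 9 to 74 in the WT channels. Quantile normalization gives the brightest probe of every channel the same value, 17.63. With loess normalization alone the TA ratios of *Slc25a4* were 0.72, 0.87, 0.79 and 0.75, mean 0.78, and the deposited ratios were 0.79, 0.90, 0.81 and 0.75, mean 0.81. The scanner software's own signals gave 0.80, 0.79, 0.62 and 0.45 in TA, mean 0.67. In *gastrocnemius* loess alone gave values between 1.08 (pair 2) and 1.54 (pair 3), mean 1.31. So the step from 0.79 in pair 1 to 0.03 in pair 4 of TA appears with quantile normalization and not with loess alone. The scanner software's signals show a smaller fall, from 0.80 to 0.45, and the mean lies above 0 with each. The adjusted p in *gastrocnemius* was 0.121 without pair 3 and 0.156 without pair 4, within 0.00154 to 0.156 over the 16 alternatives; in TA it was 0.278, 0.19 and 0.116 without pairs 1, 2 and 3, 0.129 with a normexp offset of 0, and between 0.0119 and 0.308 over all of them. Without pair 1 the TA mean was 0.26.

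**Figure D1:**
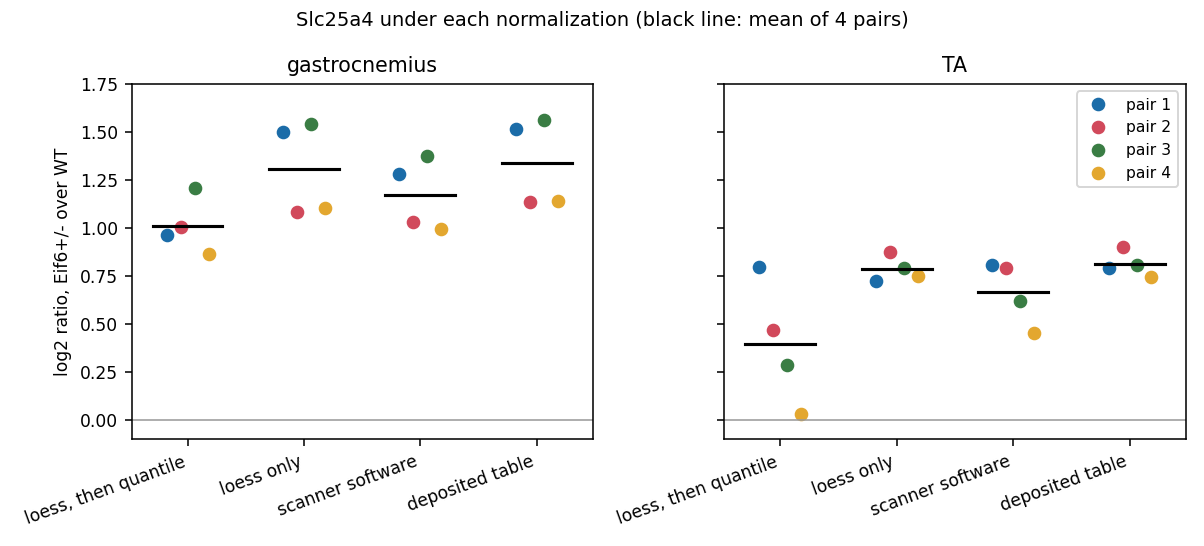
Log2 ratios of *Slc25a4*, *Eif6*+/- over WT, on each array (points) with their mean (line) under 4 ways of normalizing the same arrays, for *gastrocnemius* (left) and TA (right). In TA the mean is 0.39 after loess and quantile normalization and 0.78 after loess alone; all 4 ways place every array above 0.

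*Slc25a5*, the form common in proliferating tissue, had log2 ratios of −0.01, 0.34, −0.08 and −0.11 in *gastrocnemius* and −0.16, 0.09, 0.15 and −0.34 in TA. Pair 2 of *gastrocnemius* stood above the others, the genotypes overlapped in both muscles, and the means of 0.03 ± 0.21 and −0.07 ± 0.23 (SD, n = 4 pairs each; limma, adjusted p = 0.86 and 0.684; above 0 on 1 and on 2 of 4 arrays) did not pass. *Slc25a31*, a form of the testis, was not well above background on any array in either channel, so its ratios (−0.01 to 0.10 in *gastrocnemius*, −0.20 to 0.00 in TA) carry no level.

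The ATP-Mg/phosphate carriers exchange ATP-Mg for phosphate and so change the adenine nucleotide content of the matrix, and *Slc25a25* is a calcium-regulated form found in muscle. Its log2 ratios were 2.17, 1.24, −0.03 and 1.22 in *gastrocnemius* pairs 1 to 4 and 2.35, 1.30, 0.00 and 1.37 in TA pairs 1 to 4. The pattern over pair numbers was alike in both muscles, with pair 1 highest and pair 3 at about 0. Its normalized log2 intensities in WT *gastrocnemius* were 9.01, 9.03, 10.01 and 9.93 and in WT TA 8.87, 8.93, 9.94 and 9.87, so the WT samples of pairs 3 and 4 lay about 1 log2 unit above those of pairs 1 and 2. In *Eif6*+/- muscle they were 11.18, 10.26, 9.97 and 11.16 in *gastrocnemius* and 11.22, 10.23, 9.94 and 11.24 in TA, with pairs 1 and 4 high and pairs 2 and 3 low. The genotypes overlapped in *gastrocnemius*, where *Eif6*+/- pair 3 lay below WT pair 3, and came within 0.01 of each other in TA pair 3 without overlapping. Between arrays of the same pair number the 2 muscles differed by −0.09 to 0.03 in *Eif6*+/- and by 0.07 to 0.14 in WT samples.

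*Slc25a25* rose 2.22-fold in *gastrocnemius* (mean log2 ratio 1.15 ± 0.90, SD, n = 4 pairs; limma, adjusted p = 0.0671, higher on 3 of 4 arrays) and 2.39-fold in TA (1.26 ± 0.96; adjusted p = 0.0456, higher on 4 of 4 with pair 3 at 0.00). The other probe of the gene passed in both muscles too (limma, adjusted p = 0.0797 and 0.0448), with ratios of 2.20, 1.01, −0.09 and 1.30 in *gastrocnemius* and a mean of 1.24 in TA. Its TA ratios were 2.24, 1.28, −0.03 and 1.45, so pair 3 lay just below 0 there. With the scanner software's signals the brighter probe also lay just below 0 in TA pair 3 (−0.005). Without pair 2 the adjusted p in *gastrocnemius* was 0.125, without pair 3 it was 0.121 and without pair 4 it was 0.209, within 0.0563 to 0.306 over the alternatives. In TA it was 0.192 without pair 1 and 0.12 without pair 2, within 0.0183 to 0.292, and the scanner software's signals gave 0.102 in *gastrocnemius* and 0.117 in TA. Over the same arrays the summed signal of 23 early response genes, a list chosen with earlier results known and led by *Nr4a1*, had log2 ratios of 0.93, 0.19, 0.14 and 0.44 in *gastrocnemius* and 1.03, 0.25, −0.18 and 0.61 in TA. *Nr4a1* itself was lowest in pair 3 of both muscles (0.20 and −0.19), but of the 19 genes tested only 9 in *gastrocnemius* and 6 in TA were, against 9 and 11 lowest in pair 2, among them *Fos* (−1.19 and −1.73) and *Egr1* (−2.14 and −2.46). Between 19 and 20 of its genes were above background on each array, and its part in the *Slc25a25* values was not tested.

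**Figure D2:**
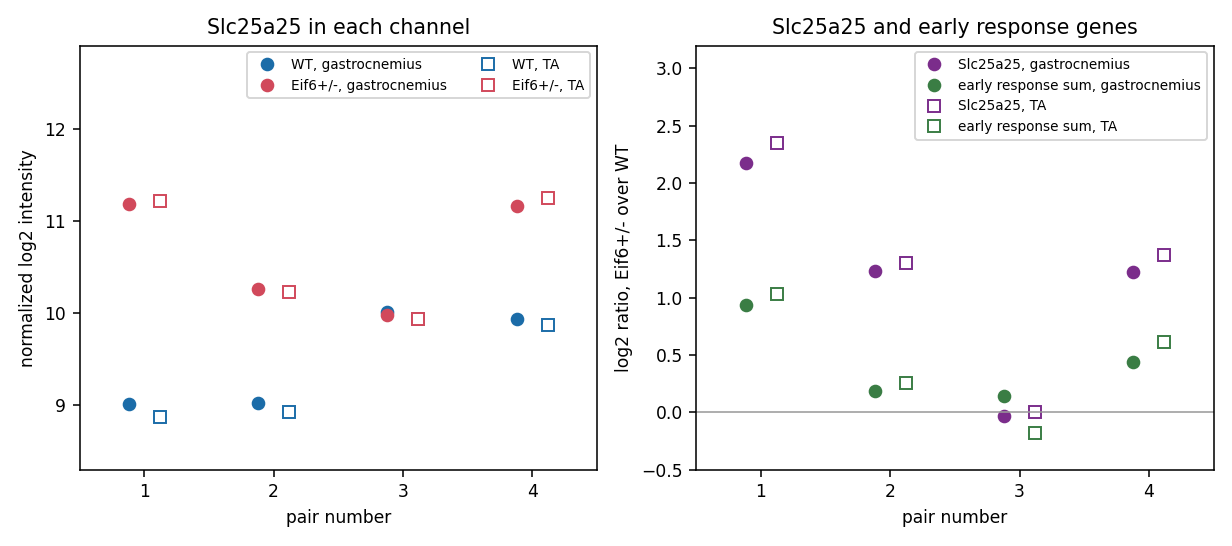
Left, normalized log2 intensity of *Slc25a25* in each WT (blue) and *Eif6*+/- (red) sample by pair number, filled for *gastrocnemius* and open for TA; right, its log2 ratio (purple) beside that of the summed early response genes (green). WT samples of pairs 1 and 2 lie between 8.87 and 9.03 and those of pairs 3 and 4 between 9.87 and 10.01, and the ratio falls to about 0 in pair 3 of both muscles.

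*Slc25a25* has 3 annotated starts, and the sequence around each is shown because the gene had the largest rise of the family in TA and, with quantile normalization, in *gastrocnemius* (with loess alone *Slc25a4* rose more there, 1.31 against 1.15). Without pair 1 the *gastrocnemius* mean of *Slc25a25* was 0.81, below that of *Slc25a4*, which lay at 0.94 or above in every alternative. The windows run from 250 bases before to 50 bases after the start, on the minus strand of GRCm38.p6 and as RefSeq annotates it (chr2:32451421-32451720, chr2:32431102-32431401 and chr2:32424017-32424316 in this order). Capitals mark TGACGTCA, the cAMP response element (CRE), searched on both strands and reading the same on each. It stood once, from base −150 of start 3, and in 588 of 32851 mouse promoter windows of this length (1.79%). Neither start 1 nor start 2 held it, and a match of letters is a description only. The arrays do not tell from which start the transcripts came.
Slc25a25 start 1: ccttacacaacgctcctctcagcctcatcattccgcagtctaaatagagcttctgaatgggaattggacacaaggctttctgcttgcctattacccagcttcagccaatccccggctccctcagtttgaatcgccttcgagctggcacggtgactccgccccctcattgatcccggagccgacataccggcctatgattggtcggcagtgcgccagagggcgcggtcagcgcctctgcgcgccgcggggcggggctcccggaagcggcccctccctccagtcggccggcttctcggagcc
Slc25a25 start 2: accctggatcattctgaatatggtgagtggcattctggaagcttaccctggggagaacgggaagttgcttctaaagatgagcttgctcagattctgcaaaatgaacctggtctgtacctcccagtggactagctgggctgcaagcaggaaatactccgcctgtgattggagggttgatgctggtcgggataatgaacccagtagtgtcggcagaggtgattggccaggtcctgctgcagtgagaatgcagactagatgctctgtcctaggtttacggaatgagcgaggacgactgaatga
Slc25a25 start 3: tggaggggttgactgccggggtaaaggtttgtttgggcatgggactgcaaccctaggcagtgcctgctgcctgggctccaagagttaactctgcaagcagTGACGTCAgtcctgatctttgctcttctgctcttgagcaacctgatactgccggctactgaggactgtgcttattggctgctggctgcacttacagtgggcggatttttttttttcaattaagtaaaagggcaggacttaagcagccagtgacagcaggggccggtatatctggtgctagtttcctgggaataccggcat

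*Slc25a24*, another calcium-regulated carrier of this group, had log2 ratios of −0.59, 0.07, −0.91 and 0.00 in *gastrocnemius* and 0.21, −0.12, 0.24 and −0.40 in TA. Low values came from pairs 1 and 3 in *gastrocnemius*, the genotypes overlapped, and neither the mean of −0.35 ± 0.47 nor that of −0.02 ± 0.30 passed (SD, n = 4 pairs; limma, adjusted p = 0.225 and 0.935; below 0 on 2 of 4 arrays in each muscle). *Slc25a23* was above background in WT on 3 *gastrocnemius* and 2 TA arrays only and was not tested; its ratios ran from −0.40 to 0.20 and from −0.35 to −0.06. *Slc25a41*, a form that calcium does not regulate, was not well above background on any array.

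*Slc25a3* imports the phosphate from which ATP is made. Its log2 ratios were 0.53, 0.47, 0.68 and 0.32 in *gastrocnemius* and 0.32, 0.45, 0.28 and 0.04 in TA, above 0 on all 8 arrays, but TA pair 4 lay at −0.03 with loess alone, with the scanner software's signals and in the deposited ratios. The genotypes did not overlap in either muscle, with WT intensities of 13.79 to 14.11 against 14.26 to 14.64 in *gastrocnemius* and 14.43 to 14.65 against 14.69 to 14.88 in TA. It rose 1.42-fold in *gastrocnemius* (0.50 ± 0.15, SD, n = 4 pairs; limma, adjusted p = 0.0321) and 1.21-fold in TA (0.27 ± 0.17; adjusted p = 0.0846). The second probe gave 0.38 in *gastrocnemius* but −0.07 in TA, with TA ratios of 0.01, 0.28, −0.19 and −0.38, so the probes disagree there and the TA rise rests on the brighter one. The *gastrocnemius* call was lost without pair 3 (limma, adjusted p = 0.128) and without pair 4 (0.156), within 0.00726 to 0.167 over the alternatives. The TA call was lost without pairs 1, 2 and 3 (0.278, 0.245 and 0.166), with loess alone (0.183), a normexp offset of 0 (0.148), the scanner software's signals (0.272), the deposited ratios (0.186) and the mean of both probes (0.528), and was kept in 7 of 16 alternatives.

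The promoter windows of *Slc25a4* and *Slc25a3* are shown for comparison with *Slc25a25*. Both genes were called higher in both muscles, though *Slc25a3* in TA by its brighter probe alone. The windows lie on the minus strand of GRCm38.p6 by RefSeq annotation (chr8:46211013-46211312 and chr10:91123918-91124217). In them 4 motifs were searched on both strands: the CRE; its shorter form TGACG, which lies within it and occurs in 20.8% of windows; TNAAGGTCA, an element bound by estrogen-related receptors, in 1.28%; and GCGCANGCG, the core of the NRF-1 element, in 6.25%. Capitals mark the matches. *Slc25a3* held 4 short CRE forms, from bases −121, −70, −56 and −48, the one at −56 on the opposite strand, and 1 NRF-1 core from base −213 on the opposite strand. None of the 4 motifs stood in the *Slc25a4* window or in those of *Slc25a25* starts 1 and 2, and start 3 of *Slc25a25* held the short form only within its CRE, on both strands. Of the 47 members, 36 had such a window, and a match or its lack says nothing of what binds there.
Slc25a4: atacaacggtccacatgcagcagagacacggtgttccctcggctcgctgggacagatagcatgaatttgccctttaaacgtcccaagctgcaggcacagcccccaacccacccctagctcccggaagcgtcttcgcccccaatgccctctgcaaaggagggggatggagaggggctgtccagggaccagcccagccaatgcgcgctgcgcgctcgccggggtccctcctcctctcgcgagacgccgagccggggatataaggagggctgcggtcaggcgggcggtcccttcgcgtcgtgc
Slc25a3: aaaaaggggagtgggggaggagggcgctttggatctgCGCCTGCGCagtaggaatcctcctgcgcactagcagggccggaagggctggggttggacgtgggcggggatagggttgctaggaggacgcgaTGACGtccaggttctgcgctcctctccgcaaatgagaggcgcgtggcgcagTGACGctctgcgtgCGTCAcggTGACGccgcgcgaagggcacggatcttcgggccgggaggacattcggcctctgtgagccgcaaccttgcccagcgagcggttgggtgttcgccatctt

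Among the carriers of di- and tricarboxylates, *Slc25a11* exchanges oxoglutarate for malate and takes part in the malate-aspartate shuttle. The log2 ratios of *Slc25a11* were 0.38, 0.25, 0.48 and 0.21 in *gastrocnemius* and 0.22, 0.18, 0.02 and −0.10 in TA. Every *gastrocnemius* pair lay above 0, although the genotypes met at 14.19 (*Eif6*+/- pair 2 and WT pair 4), and TA pair 4 lay below 0. It rose 1.26-fold in *gastrocnemius* (0.33 ± 0.13, SD, n = 4 pairs; limma, adjusted p = 0.0571), while the TA mean of 0.08 ± 0.15 did not pass (adjusted p = 0.532, above 0 on 3 of 4). The rise was lost without pair 1 (limma, adjusted p = 0.103), pair 3 (0.197) and pair 4 (0.169) with a normexp offset of 0 (0.106) and with the scanner software's signals (0.202), within 0.0209 to 0.202. The citrate carrier *Slc25a1* (−0.34 in *gastrocnemius*, −0.13 in TA) and the dicarboxylate carrier *Slc25a10* (−0.22 in *gastrocnemius*) did not pass, and the oxodicarboxylate carrier *Slc25a21* was not above background.

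None of the 7 tested carriers of amino acids and glutathione was called in *gastrocnemius*, where 15.4% of all genes were, and 1 of 8 in TA, where 16.3% were. *Slc25a12*, the calcium-stimulated aspartate/glutamate carrier of the malate-aspartate shuttle in muscle, had log2 ratios of 0.56, −0.34, 0.09 and 0.14 in *gastrocnemius* and −0.21, −0.26, −0.20 and −0.10 in TA. Pair 1 stood high and pair 2 low in *gastrocnemius*, whereas all 4 TA pairs lay a little below 0, with overlapping genotypes in both muscles. Its means were 0.11 ± 0.37 and −0.19 ± 0.07 (SD, n = 4 pairs; limma, adjusted p = 0.632 and 0.114); in TA the adjusted p was 0.0538 with loess alone and 0.0682 with the deposited ratios, within 0.0538 to 0.308. In TA the gene was called in 4 of 16 alternatives, these among them. *Slc25a13*, the liver form of the same carrier, was tested in TA alone, where its ratios of −0.02, 0.12, 0.20 and −0.10 had a mean of 0.05 ± 0.13 (limma, adjusted p = 0.713, above 0 on 2 of 4); on *gastrocnemius* arrays they were 0.48, −0.09, 0.15 and −0.30. With the scanner software's signals the TA mean of this dim gene was 0.58, with pair 3 at 2.23. *Slc25a13* was called in 0 of 15 alternatives in TA.

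*Slc25a39*, which carries glutathione into mitochondria, had log2 ratios of 0.11, −0.65, −0.24 and −0.35 in *gastrocnemius* and −0.85, −0.19, −0.25 and −0.41 in TA. All 4 TA pairs lay below 0, pair 1 lowest, and in TA the WT samples (8.40 to 8.85) lay above the *Eif6*+/- samples (8.01 to 8.32). Its TA level fell to 0.746 of WT (−0.42 ± 0.30, SD, n = 4 pairs; limma, adjusted p = 0.0579); in *gastrocnemius* the mean of −0.28 ± 0.31 did not pass (0.191, below 0 on 3 of 4), but did without pair 1 (0.0744, within 0.0744 to 0.428). Without pair 1 the TA adjusted p was 0.206, and with the scanner software's signals 0.108, within 0.0516 to 0.274. The TA mean of *Slc25a39* was −0.28 without pair 1. Its close relative *Slc25a40* lay above 0 on all 8 arrays (7 with the scanner software's signals), with means of 0.21 and 0.22 that did not pass (limma, adjusted p = 0.105 and 0.131; 4 of 4 arrays in each muscle) but did in *gastrocnemius* with a normexp offset of 0 (0.0771), no background correction (0.089) and the scanner software's signals (0.0666), and in both muscles with the deposited ratios (0.0897 and 0.0869). The other tested members of this group, *Slc25a22* (glutamate), *Slc25a29* (basic amino acids), *Slc25a38* (glycine) and *Slc25a44* (branched-chain amino acids), had means between −0.14 and 0.35 in *gastrocnemius* and between −0.15 and 0.02 in TA and did not pass; *Slc25a2*, *Slc25a15* and *Slc25a18* were not tested.

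*Slc25a20* brings long-chain acylcarnitines into the matrix for beta-oxidation. Ratios of *Slc25a20* (log2) were 0.46, −0.67, 0.14 and −0.26 in *gastrocnemius* and −0.63, −0.27, −0.13 and −0.61 in TA. The *gastrocnemius* pairs lay on both sides of 0 with overlapping genotypes, whereas all 4 TA pairs lay below 0 and there the WT samples (9.61 to 10.15) lay above the *Eif6*+/- samples (9.42 to 9.59). In TA it fell to 0.751 of WT (−0.41 ± 0.25, SD, n = 4 pairs; limma, adjusted p = 0.0479), and in *gastrocnemius* the mean was −0.08 ± 0.49 (adjusted p = 0.797, below 0 on 2 of 4). The TA call was lost without pair 1 (0.218) and pair 2 (0.105), with the scanner software's signals (0.119) and in a fit of all 8 arrays (0.132), within 0.0395 to 0.244.

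Both iron carriers, the mitoferrins, bring iron to the matrix for haem and iron-sulfur cluster synthesis. *Slc25a28*, the widely expressed form, had log2 ratios of 0.06, −0.38, 0.01 and −0.22 in *gastrocnemius* and −0.30, −0.40, −0.26 and −0.03 in TA. All 4 TA pairs lay below 0, pair 4 only just (0.09 with the scanner software's signals), and the genotypes overlapped in both muscles. In TA it fell to 0.842 of WT (−0.25 ± 0.16, SD, n = 4 pairs; limma, adjusted p = 0.0944), a call that was lost without pairs 1, 2 and 3 (0.297, 0.265 and 0.184) and with 6 other alternatives, within 0.059 to 0.297. The *gastrocnemius* mean of −0.13 ± 0.20 did not pass (limma, adjusted p = 0.405, below 0 on 2 of 4), nor did the erythroid form *Slc25a37* (0.14 in *gastrocnemius*, where its other probe gave −0.13, and −0.04 in TA).

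Of the 9 tested carriers of nucleotides, CoA and other cofactors, 2 rose in *gastrocnemius*, where 9.87% of all genes rose, and none was called in TA, where 16.3% of all genes were. *Slc25a33*, which carries pyrimidine nucleotides, had log2 ratios of 0.71, 0.11, 0.36 and 0.77 in *gastrocnemius* and 0.70, 0.02, −0.26 and 0.43 in TA. In both muscles pairs 1 and 4 stood above pairs 2 and 3, and the genotypes overlapped. It rose 1.40-fold in *gastrocnemius* (0.49 ± 0.31, SD, n = 4 pairs; limma, adjusted p = 0.0617, higher on 4 of 4), where its other probe gave 0.25, and the TA mean was 0.22 ± 0.43 (adjusted p = 0.342, above 0 on 3 of 4). The call was lost without pairs 1, 3 and 4 (0.113, 0.172 and 0.214), with the scanner software's signals (0.132) and with the mean of both probes (0.157), within 0.0568 to 0.256.

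*Slc25a26* imports S-adenosylmethionine, the methyl donor. Pairs 1 to 4 gave log2 ratios of 0.22, 0.26, 0.48 and 0.26 in *gastrocnemius* and 0.19, 0.45, −0.12 and −0.09 in TA. In *gastrocnemius* all 4 pairs lay above 0 without overlap of the genotypes, pair 3 apart from the rest, while in TA pairs 1 and 2 lay above 0 and pairs 3 and 4 below. It rose 1.23-fold in *gastrocnemius* (0.30 ± 0.12, SD, n = 4 pairs; limma, adjusted p = 0.065), but its other probe gave 0.02 there. In TA the brighter probe gave 0.11 ± 0.27 (limma, adjusted p = 0.531, above 0 on 2 of 4), while the other probe passed in the opposite direction, −0.22 with all 4 pairs below 0 (adjusted p = 0.0919). The call was lost without pairs 2, 3 and 4 (0.109, 0.214 and 0.197), with a normexp offset of 0 (0.11) and with the mean of both probes (0.217), within 0.0548 to 0.217. Other carriers of this group, among them the CoA carriers *Slc25a16* and *Slc25a42*, the peroxisomal carrier *Slc25a17*, the folate and FAD carrier *Slc25a32*, the pyrimidine nucleotide carrier *Slc25a36* and the NAD carrier *Slc25a51*, had means between −0.09 and 0.25 in *gastrocnemius* and between −0.27 and 0.16 in TA, none of which passed. In TA *Slc25a16* did pass with loess alone (0.20, limma, adjusted p = 0.0918) and with the deposited ratios (0.23, adjusted p = 0.0933). The probes of *Slc25a51* pointed in opposite directions in both muscles (−0.09 and 0.03 in *gastrocnemius*, −0.27 and 0.15 in TA).

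*Slc25a14*, related to the uncoupling proteins, had log2 ratios of 0.20, 0.48, 0.32 and 0.33 in *gastrocnemius* and 0.35, 0.52, 0.05 and 0.32 in TA. Every pair lay above 0, although TA pair 3 fell just below it with the scanner software's signals, and the genotypes did not overlap in either muscle, with pair 2 highest in both. It rose 1.26-fold in *gastrocnemius* (0.33 ± 0.12, SD, n = 4 pairs; limma, adjusted p = 0.0532) and 1.24-fold in TA (0.31 ± 0.20; adjusted p = 0.0689). The *gastrocnemius* call was lost without pairs 2, 3 and 4 (0.114, 0.172 and 0.188), within 0.0261 to 0.188, and the TA call without pairs 1, 2 and 4 (0.252, 0.205 and 0.114), with a normexp offset of 0 (0.107) and with the scanner software's signals (0.139), within 0.0517 to 0.252. Its relatives *Slc25a27* (0.02 in *gastrocnemius*, −0.08 in TA) and *Slc25a30* (0.10 and −0.13) did not pass; *Slc25a30* had *gastrocnemius* ratios of −0.19, 1.16, −0.17 and −0.42, and without pair 2, which stood far from the rest, its mean there was −0.26.

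Among members with another or no assigned substrate, *Slc25a46* lies in the outer mitochondrial membrane, where it takes part in fusion and fission and in cristae upkeep. It had log2 ratios of 0.29, 0.55, 0.50 and 0.09 in *gastrocnemius* and 0.26, 0.30, 0.19 and 0.05 in TA, all above 0 and lowest in pair 4 of both, and the genotypes overlapped in TA alone. It rose 1.28-fold in *gastrocnemius* (0.35 ± 0.21, SD, n = 4 pairs; limma, adjusted p = 0.0718), while the TA mean of 0.20 ± 0.11 did not pass (0.123, above 0 on 4 of 4) except without pair 4 (0.0971) and with the mean of both probes (0.078), within 0.078 to 0.347. Its other probe did pass in TA (0.30, limma, adjusted p = 0.0505, above 0 on 4 of 4) and did not in *gastrocnemius* (0.25, adjusted p = 0.11). The *gastrocnemius* call was lost without each of the 4 pairs in turn (0.101, 0.156, 0.242 and 0.157), with a normexp offset of 0 (0.111) and with the scanner software's signals (0.169), within 0.0232 to 0.242. *Slc25a35*, whose substrate is not settled, had log2 ratios of 0.32, −0.50, 0.05 and −0.38 in *gastrocnemius* and −0.58, −0.27, −0.32 and −0.16 in TA. All 4 TA pairs lay below 0, with WT samples (7.34 to 7.84) just above *Eif6*+/- samples (7.02 to 7.33), and the *gastrocnemius* pairs lay on both sides. In TA it fell to 0.793 of WT (−0.33 ± 0.18, SD, n = 4 pairs; limma, adjusted p = 0.0524), a call that was lost without pairs 1, 2 and 3 (0.218, 0.125 and 0.107) and in a fit of all 8 arrays (0.126), within 0.0414 to 0.222. With the scanner software's signals its TA mean was −0.60, so the size of the fall depends on the processing. *Slc25a34*, *Slc25a45* and *Slc25a47* did not pass, with means between −0.15 and 0.42 in *gastrocnemius* and between −0.19 and 0.02 in TA. *Slc25a45* was called lower in TA with a normexp offset of 0 (−0.42, limma, adjusted p = 0.0719) and in *gastrocnemius* with the scanner software's signals (−0.57, adjusted p = 0.0782).

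The difference between the muscles was tested directly, as the genotype effect in *gastrocnemius* minus that in TA. No member of 34 was called (0 of 12194 genes in all with limma; an unadjusted p under 0.05 was reached by 2 members and 996 genes), and the scanner software's signals, which called 1 gene in all, called no member either. The 2 members were *Slc25a4*, with a difference of 0.62 (limma, unadjusted p = 0.00215, adjusted p = 0.636), and *Slc25a11*, with 0.25 (unadjusted p = 0.0416, adjusted p = 0.638). For *Slc25a4* the difference stayed between 0.49 and 0.75 over 18 alternatives, with adjusted p from 0.229 to 0.958. With limma the differences of *Slc25a3* (0.23, adjusted p = 0.655) and *Slc25a20* (0.33, adjusted p = 0.714) did not pass, and neither did those of *Slc25a14* (0.02) and *Slc25a25* (−0.11, adjusted p = 0.973 for each). Over the 18 alternatives the difference of *Slc25a25* ran from −0.52 to 0.29 and changed sign in 2. A call in 1 muscle alone, as for *Slc25a11*, *Slc25a26*, *Slc25a33* and *Slc25a46* in *gastrocnemius* or *Slc25a20*, *Slc25a28*, *Slc25a35* and *Slc25a39* in TA, is therefore not shown to be a difference between muscles. The difference was above 0 for 27 members and below 0 for 7 (6372 and 5822 of all genes), with a median of 0.15 against 0.01 for all genes.

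**Figure D3:**
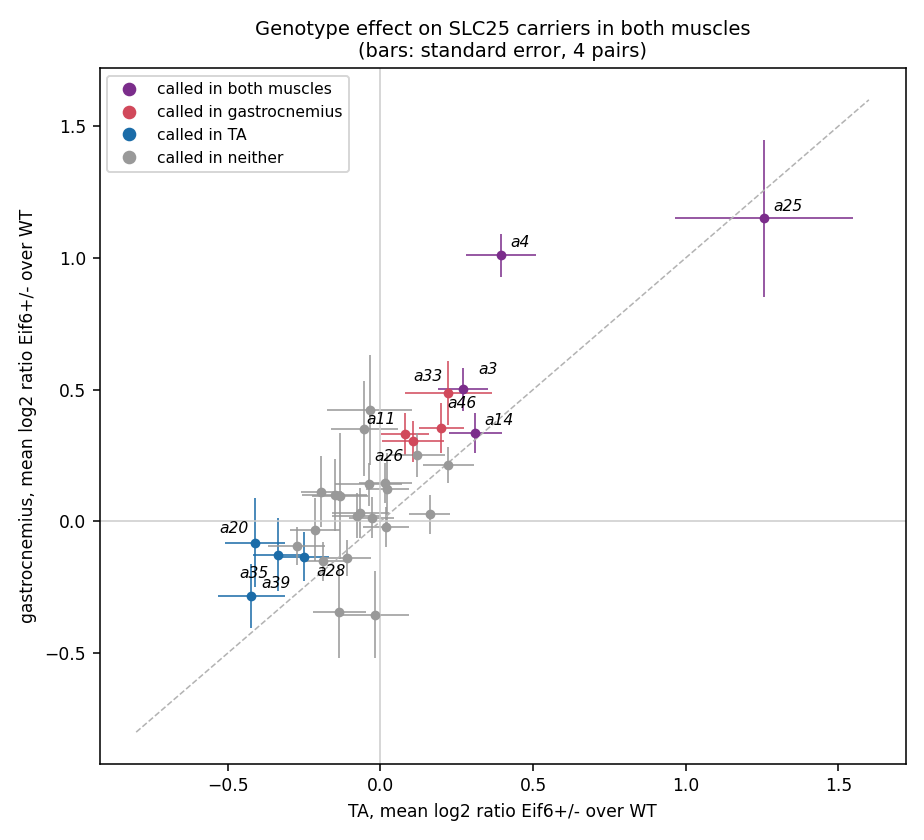
Mean log2 ratio of *Eif6*+/- over WT in *gastrocnemius* (vertical) against TA (horizontal) for SLC25 members tested in both, with standard errors over 4 pairs and a dashed line of equal effects; purple points were called in both muscles, red in *gastrocnemius*, blue in TA. *Slc25a4* lies farthest above the line among the called members (1.01 against 0.39), and *Slc25a25* is highest on both axes (1.15 and 1.26).

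The WT muscles were compared through their Cy3 channels. Of 34 tested members 12 were called (35.3%, against 22.8% of all 11835 genes), and 10 of them were lower in *gastrocnemius* than in TA. The 2 higher ones include the dicarboxylate carrier *Slc25a10*, whose probe was well above background on only 1 of 4 WT channels of TA, so its call is set aside; without it 11 of 33 members (33.3%) were called, 1 higher and 10 lower. *Slc25a11* had log2 intensities of 14.07, 13.94, 13.98 and 14.19 in WT *gastrocnemius* and 14.61, 14.76, 14.75 and 14.96 in WT TA, all of the first below all of the second, a difference of −0.72 (limma, adjusted p = 0.00348). By limma *Slc25a3* (−0.57, adjusted p = 0.00616) and *Slc25a4* (−0.59, adjusted p = 0.031) were lower in *gastrocnemius* too, and so were, among others, *Slc25a12* (−0.49), *Slc25a16* (−0.21), *Slc25a20* (−0.49), *Slc25a26* (−0.45), *Slc25a29* (−0.48) and *Slc25a46* (−0.42), whose other probe gave −0.05 (adjusted p = 0.695). The citrate carrier *Slc25a1*, which exports citrate for lipid synthesis, went the other way, with 7.97, 8.34 and 8.05 in *gastrocnemius* samples 1 to 3, a still higher value in sample 4, and 7.44, 7.27, 7.32 and 7.29 in TA, 2.02-fold higher (1.01, limma, adjusted p = 0.0125). *Slc25a25* did not pass (0.09, limma, adjusted p = 0.875), and neither did *Slc25a5* (−0.32, adjusted p = 0.112).

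Of these, *Slc25a1*, *Slc25a3* and *Slc25a11* kept their call under all 19 alternatives, with *Slc25a1* at 1.65 with the scanner software's signals. *Slc25a16* (−0.11 with loess alone and −0.02 with the scanner software's signals) lost it whichever of the 8 arrays was left out (0.109 to 0.225) and kept it in 2 alternatives of 19 in all (0.0875 to 0.945). *Slc25a20* lost it without *gastrocnemius* arrays 1 and 3 (0.166 and 0.195) and TA arrays 1, 2 and 4 (0.161, 0.146 and 0.195), with loess alone (0.116), a normexp offset of 0 (0.102), the scanner software's signals (0.305) and no filter (0.166). *Slc25a29* lost it without *gastrocnemius* arrays 1 and 3 (0.101 and 0.132) and TA arrays 2 and 4 (0.129 and 0.11), with loess alone (0.104), the scanner software's signals (0.277) and no filter (0.102). *Slc25a4*, *Slc25a12*, *Slc25a26* and *Slc25a46* lost it only with the scanner software's signals (0.243, 0.207, 0.252 and 0.255), where their differences were −0.30, −0.39, −0.32 and −0.27; that of *Slc25a46* was −0.23 with the mean of both probes. Of all genes called, 1035 were higher and 1667 lower in *gastrocnemius* (38.3% higher), but 908 and 740 with loess alone (55.1%) and 1782 and 273 with the scanner software's signals (86.7%). Those signals were not scaled between arrays and moved the median of all genes from −0.03 to 0.19; the members' median was then −0.06, or −0.25 relative to all genes, and 3 members were higher and 3 lower, against a median of −0.23 and 2 higher (*Slc25a10*, set aside above, included) and 10 lower before. The members' median stayed below 0 under each of these scalings. 

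The neighbouring systems were counted from lists chosen with earlier results of these data known; of all genes 9.87% rose and 5.54% fell in *gastrocnemius*, 8.99% and 7.29% in TA, and 22.8% differed between WT muscles. Of 17 tested ATP synthase genes, which use the substrates that *Slc25a3* and *Slc25a4* deliver, 9 rose and none fell in *gastrocnemius* (median 0.34), with *Atp5b* at 0.70, *Atp5g3* at 0.69, *Atp5a1* at 0.49 and *Atp5g1* at 0.47. In TA 1 rose (*Atp5b*, 0.38) and 1 fell (*Atp5d*, −0.25), with a median of 0.01, and in WT muscle 13 of 17 were lower in *gastrocnemius*, as *Slc25a3*, *Slc25a4* and *Slc25a11* were. Their summed signal had log2 ratios of 0.46, 0.28, 0.49 and 0.25 in *gastrocnemius* and 0.23, 0.17, 0.02 and −0.05 in TA. Of 12 tested genes for the import of carrier proteins, 2 rose in *gastrocnemius* (*Timm10*, 0.52, and *Tomm20*, 0.40), while in TA the same 2 rose (0.31 and 0.44) and *Timm13* fell (−0.25); in WT muscle 5 were lower in *gastrocnemius*. The other probe of *Timm10* gave 0.23 in *gastrocnemius*, which passed, and about 0 in TA (adjusted p = 0.985), and that of *Tomm20* gave 0.23 and 0.19, neither of which passed (limma, adjusted p = 0.119 and 0.173), so the *Tomm20* rises and the TA rise of *Timm10* rest on 1 probe each.

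Of 24 tested genes of other mitochondrial transport, 5 rose and 2 fell in *gastrocnemius*, among them the pyruvate carrier subunit *Mpc1* (0.64), mitochondrial creatine kinase *Ckmt2* (0.70), *Ucp2* (−0.64) and *Tspo* (−0.74). In TA 2 rose, *Mpc1* (0.34) and *Vdac2* (0.27), and 2 fell, *Tspo* (−0.49) and *Letm1* (−0.25), while the other probe of *Mpc1* gave 0.18 in *gastrocnemius* and −0.03 in TA and did not pass; in WT muscle 5 of 23 were higher and 8 lower in *gastrocnemius*. Of 19 tested early response genes, 6 rose and 1 fell in *gastrocnemius* and 3 rose in TA, with *Dusp1* at 0.70 and 0.97, *Nr4a1* at 0.53 and 0.51, *Per1* at 0.53 and 0.59 and *Klf4* at 0.66 in *gastrocnemius*; in WT muscle 1 of 18 was higher and 2 lower in *gastrocnemius*. No gene of these lists was called for the difference between the muscles (limma).

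Markers of fibre types and other cells varied between the same samples, and in bulk muscle fewer cells of a type and less RNA per cell cannot be told apart. All 7 slow fibre markers were above background on every array, and their summed signal, led by *Myl3*, had log2 ratios of 3.22, −1.09, 0.19 and −0.18 in *gastrocnemius* and 0.01, −0.52, −0.06 and −1.45 in TA. None was called in *gastrocnemius* and 3 fell in TA (*Tnnt1*, *Tnni1* and *Tnnc1*). In *gastrocnemius* 10 of the 35 tested carriers had their highest ratio in pair 1 and their lowest in pair 2, the extremes of the slow fibre sum, as did 2275 of 12601 genes (28.6% against 18.1%); they include *Slc25a12*, *Slc25a20*, *Slc25a28*, *Slc25a35* and *Slc25a39*. This order was chosen after its values were seen, and the part of slow fibres in these carriers' values was not tested. In WT muscle 6 of the 7 slow fibre markers were higher in *gastrocnemius*, with sums of 14500, 65010, 41202 and 153667 intensity units in *gastrocnemius* and 12119, 34659, 10359 and 38234 in TA, and their part in the lower carrier signals there was not tested.

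Fast fibre markers, led by *Pvalb* on most arrays and all above background, lie near the top of the intensity scale, where quantile normalization leaves little room. Their sums had log2 ratios of −0.01 to 0.16 in *gastrocnemius* and −0.15 to 0.15 in TA, while the mean ratios of single genes ran from −0.37 to 1.62 in *gastrocnemius*, with 1 of 9 called higher and 2 lower in *gastrocnemius* and 1 higher in TA. Red blood cell markers, led by *Hba-a2*, fell for 4 of 5 genes in TA, with sums at −0.21, −1.02, −0.47 and −0.02, and 0 of 5 were called in *gastrocnemius* by limma (0.39, −0.16, −0.36 and −0.05). The erythroid iron carrier *Slc25a37* had TA ratios of −0.48, 0.11, 0.04 and 0.18 beside them. Fat cell markers fell for 2 of 6 in *gastrocnemius* and rose for 3 of 6 in TA, with sums at −0.46, −0.10, −0.41 and −1.37 and at 0.02, −0.01, 0.69 and −0.18; the citrate carrier *Slc25a1* had *gastrocnemius* ratios of 0.35, −0.38, −0.53 and −0.82, with pair 4 lowest in both. In WT muscle 5 of 6 fat cell markers were higher in *gastrocnemius*, as *Slc25a1* was. The part of blood and fat cells in these values was not tested.

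Leukocyte markers, led by *Cd74*, lay lower in *Eif6*+/- muscle in sum on all 8 arrays (−2.07 to −0.46 in *gastrocnemius*, −0.86 to −0.21 in TA), with 1 of 2 and 1 of 4 tested genes called lower. Connective tissue markers, led by *Col1a2*, had sums at 0.02, 0.05, −1.36 and 0.32 in *gastrocnemius* and 0.26, −0.82, 2.13 and −0.20 in TA, and none of 6 was called. Endothelial sums lay between −0.25 and 0.04, with 1 of 4 markers called lower in TA, and nerve markers, led by *Pmp22*, fell for 3 of 5 in TA (sums of −0.54 to −0.01). Between WT muscles 4 of 6 connective tissue, 1 of 4 endothelial and 1 of 5 nerve markers were higher in *gastrocnemius*. Of the satellite cell markers 1 of 2 was above background, with no call. Of the leukocyte list 3 to 5 of 5 genes were above background on an array, of the fat cell list 6 or 7 of 7, and of the red blood cell, connective tissue, endothelial and nerve lists all. By the labels fat and connective tissue were trimmed off before the muscles were frozen, and the part of these cells in the carrier values was not tested.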

How the data were processed

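Per the file headers, the deposited raw files hold spot intensities of both dyes with local backgrounds, as the scanner software read them. The authors' deposited table holds log2 ratios of Cy5 over Cy3, with column medians of −0.00441 to 0.00375. On each array they matched loess normalization of intensities without background subtraction (correlation of 0.99996 or more), and they are not quantile normalized. Probes were matched to genes by RefSeq accession (27235 of 28685 probes with an accession). Intensities were corrected with normexp (offset 50), normalized by loess within arrays and by quantiles across the 16 channels, in limma 3.58.1 (R 4.3.3, with data.table, version 1.17.8). The written design named the A-quantile form for this last step. That form leaves ratios as after loess alone, which the design lists as an alternative, so quantiles across channels were kept. The A-quantile form called 8 members in *gastrocnemius* (1295 of all genes higher and 607 lower) and 9 in TA (1366 and 748). It called 0 members and 0 genes for the difference, and 12 members between WT muscles (1054 of all genes higher and 1573 lower). Each muscle had its own limma fit; the difference between muscles and the WT channels were fitted over 8 arrays. The Benjamini-Hochberg method was applied over 23790 kept probes in *gastrocnemius*, 23383 in TA, 22757 in both and 21509 in the WT fit, at 0.1, and a gene is its brightest probe.

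Values per array are given for members called in either muscle and for a written list of 11 carriers; from each other list at most 4 called genes were named. Members and lists were chosen with earlier results of these data known. The fits were tested on simulated data. Alternatives were loess or quantiles alone, normexp offset 0, no background correction, the scanner software's signals, the deposited ratios, other filters, the mean of probes, a threshold of 0.05, each pair left out, a t-test, SAM, 1 fit of 8 arrays and pair number as a block. Chosen after seeing the data were the A-quantile form between WT muscles, the t-test without adjustment, the unpaired t-test and SAM at 0.05. Figures were drawn with matplotlib 3.10.9 in Python 3.11.15, and promoter windows came from RefSeq. Some items are not reported here. Probe sequences were not used, so hybridization between related carriers was not examined.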

Additional observations from a re-analysis of the deposited data

Results flagged for a closer look

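Among 112 groups of 4 pairs over 59 genes, 4 held a value far from the other 3 by Dixon's test, which by chance alone happens in about 1 in 20 groups. *Slc25a26* stood at 0.48 in *gastrocnemius* pair 3, next to 0.26. *Per1* stood at 1.38 in TA pair 1, next to 0.40, and *Ckm* at 0.41 in TA pair 4, next to −0.60. *Pecam1* stood at 0.13 in *gastrocnemius* pair 1, next to −0.33. Among tested carriers outside the naming rule, *Slc25a30* stood at 1.16 in *gastrocnemius* pair 2, next to −0.17, a Dixon ratio of 0.841.

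*Ppargc1a*, which lies outside the naming rule and was picked after its values were seen, had opposite signs in the muscles: 0.30, 0.20, 0.46 and 0.37 in *gastrocnemius* and −0.07, −0.15, −0.46 and −0.12 in TA. The difference of 0.53 had an unadjusted p of 0.000621 and an adjusted p of 0.636 (limma), and another probe of the gene gave 0.08 and 0.00.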

How the results depend on the processing

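The members called in *gastrocnemius* (8) numbered 7 with a normexp offset of 0 (6 higher, 1 lower), 6 with the scanner software's signals (5 higher, 1 lower), 2 at an adjusted p under 0.05, 0 with the t-test after adjustment (10 unadjusted) and 0 to 7 with 1 pair left out (0 to 1769 of all genes). In TA (8; 1112 higher and 902 lower of all genes) they numbered 5 with a normexp offset of 0 (1 higher, 4 lower; 681 and 529 of all genes), 2 with the scanner software's signals (510 and 331 of all genes), 2 at an adjusted p under 0.05, 0 with the t-test (6 unadjusted), 2 with the unpaired t-test, 2 with SAM at 0.05 and 0 to 9 with 1 pair left out (68 to 2018 of all genes). Between WT muscles (12, *Slc25a10* included, and 2702 of all genes) they numbered 6 with the scanner software's signals (1782 higher and 273 lower of all genes). With 1 array left out they numbered 8 to 14 (1662 to 2730 of all genes). Counts at 0.05, with the t-tests, with SAM and with pair number as a block have no count of all genes beside them and allow no comparison with other genes. The median log2 ratio of the SLC25 genes tested, TA (−0.03), lay between −0.0330 and 0.0508 with 1 pair left out, and in *gastrocnemius* (0.10) between 0.05 and 0.17. Leaving out a pair leaves 3; otherwise the cause was not tested. Among the SLC25 members and *Eif6* run under the alternatives no called mean changed sign, whereas 26 values of 13 results that did not pass did; other genes were not run singly. Of the values for single genes 901 kept their side of the threshold, 7 came to pass and 134 no longer passed. With pair number as a block, 0 members were called for the difference and 11 between WT muscles, 10 of them shared. For a check of pair numbers, each probe's mean over the arrays of its muscle was first subtracted, so only departures from that mean were correlated. These departures correlated between arrays of the same number at −0.36 to 0.09 in log2 ratio and −0.39 to 0.19 in WT intensity. Of the *gastrocnemius* arrays none correlated best with its own number in log2 ratio and pair 4 alone in WT intensity. Signal over background limits the dim members: 43.6% to 48.6% of probes were well above it in Cy5 and 38.7% to 46.0% in Cy3, and 11 of 47 carriers could not be tested.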
